A study of Mus musculus with 13 samples.

Results

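The genes described here encode the MARVEL-domain membrane proteins of the tight junction (Ocln, Marveld2 and Marveld3), the ZO scaffolds Tjp1 and Tjp3, the cingulins Cgn and Cgnl1, and the junctional adhesion molecule F11r. They were chosen by symbol: a probe set counted if the array annotation gave it exactly 1 of these symbols. Each of the 8 genes had 1 such probe set, and all 8 passed the filter on low signal, among 15875 genes tested of 19934 on the array. Levels are log2 intensities, so a difference of 1 is a doubling of the signal, and the level of one probe set is not compared with that of another.

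The study measured gene expression on 13 Affymetrix arrays in epithelium of mice whose p120-catenin gene, Ctnnd1, was wild type or floxed. The 4 groups were esophagus of L2-Cre p120 flox/flox animals (193, 307, 313 and 335), esophagus of L2-Cre p120 +/+ animals (214, 216 and 217), forestomach masses of flox/flox animals (412, 426 and 510), and forestomach of the same 3 +/+ animals. The +/+ animals are called controls below. Every animal carried L2-Cre, in which a viral promoter active in stratified squamous epithelium drives the recombinase, on a C57Bl/6 and 129 mixed background. Ages were not given in the sources used here. Epithelium had been freed from the rest of the tissue with dispase. All 3 forestomach samples of flox/flox animals were masses, and in the forestomach the floxed genotype and the presence of a mass cannot be told apart.

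Tight junctions seal the space between epithelial cells. In the stratified epithelium of the esophagus and forestomach they form in the differentiated layers near the surface. Occludin, tricellulin (Marveld2) and MarvelD3 span the membrane, JAM-A (F11r) is an adhesion molecule of the immunoglobulin fold, and the ZO proteins tie these and the claudins to actin. Cingulin and paracingulin (Cgnl1) bind the ZO scaffolds and link them to the cytoskeleton. Paracingulin also binds PLEKHA7, a partner of p120-catenin at the adherens junction, which ties this gene group to the deleted one.

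Ctnnd1, the targeted gene, lay between 9.95 and 10.13 in flox/flox esophagus, against 10.21 to 10.50 in control esophagus. The ranges did not overlap, but the difference of -0.29 had an adjusted p of 0.637 in limma's moderated test. In the masses Ctnnd1 lay between 9.51 and 9.91, against 10.14 to 10.40 in control forestomach, and it fell by 0.56 (SE 0.12, adjusted p = 0.0145, and 0.0681 without control forestomach 214). Whether its probes lie in the deleted part was not analysed here. Squamous epithelium markers averaged 12.23 to 12.51 on all 13 arrays. Esophagus arrays 214 (control), 307 and 335 (flox/flox) carried skeletal muscle markers at mean levels of 8.61, 8.33 and 9.86, and fibroblast markers at 10.95, 9.46 and 10.06. Mass 426 carried markers of simple and glandular epithelium, and smooth muscle markers at 10.45, the highest of all 13 arrays. Control forestomach 214 carried smooth muscle markers at 8.06, against 6.14 and 6.14 in control forestomachs 216 and 217. Its fibroblast markers were at 7.32, against 6.23 and 6.15. In such bulk samples, fewer cells of a type and less RNA per cell cannot be told apart.

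The promoter windows of 4 genes are shown because the results turn on them: Ocln differed most between the tissues, Marveld2 is its neighbour on chromosome 13 and did not follow it, Cgn was the member called in the masses, and Tjp3 followed Cgn most closely over the arrays. Each window runs from 250 bases before to 50 bases after the first listed start, on the gene's strand, from RefSeq on GRCm38.p6. Capitals mark CAGGTG, the E-box read by Snail and ZEB repressors (searched on both strands, as CAGGTG and CACCTG), or AACNGGTT, the core read by grainyhead-like factors of surface epithelia (on both strands, as AACNGGTT and AACCNGTT). The 2 motifs share no match in these windows.
Ocln: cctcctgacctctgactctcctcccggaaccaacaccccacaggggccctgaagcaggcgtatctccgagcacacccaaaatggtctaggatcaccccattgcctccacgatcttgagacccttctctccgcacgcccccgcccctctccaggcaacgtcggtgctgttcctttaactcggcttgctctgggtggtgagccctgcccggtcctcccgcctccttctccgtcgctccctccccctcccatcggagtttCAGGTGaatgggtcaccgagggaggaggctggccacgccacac
Marveld2: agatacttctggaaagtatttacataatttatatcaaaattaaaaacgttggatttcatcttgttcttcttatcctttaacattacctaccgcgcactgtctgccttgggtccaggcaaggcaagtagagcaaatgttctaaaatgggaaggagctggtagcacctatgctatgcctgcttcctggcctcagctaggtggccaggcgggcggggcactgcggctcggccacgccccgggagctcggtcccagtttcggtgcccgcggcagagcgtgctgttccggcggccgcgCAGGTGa
Cgn: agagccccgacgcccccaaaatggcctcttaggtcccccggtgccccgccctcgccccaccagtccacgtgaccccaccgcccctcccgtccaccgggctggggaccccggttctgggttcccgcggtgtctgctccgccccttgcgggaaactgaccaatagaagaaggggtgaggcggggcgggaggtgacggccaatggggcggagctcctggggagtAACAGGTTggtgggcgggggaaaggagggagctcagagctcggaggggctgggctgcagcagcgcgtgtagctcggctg
Tjp3: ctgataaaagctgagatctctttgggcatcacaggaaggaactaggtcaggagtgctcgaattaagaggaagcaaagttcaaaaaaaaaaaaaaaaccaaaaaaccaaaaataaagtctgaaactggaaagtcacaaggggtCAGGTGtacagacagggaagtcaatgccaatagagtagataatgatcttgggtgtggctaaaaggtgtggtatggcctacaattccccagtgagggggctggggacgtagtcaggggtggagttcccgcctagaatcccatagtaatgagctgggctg
The windows are chr13:100552669-100552968 for Ocln, chr13:100616922-100617221 for Marveld2, chr3:94786433-94786732 for Cgn and chr10:81291532-81291831 for Tjp3, all on the minus strand.

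A promoter was in the table for 7 of the 8 members. CAGGTG began at position 8 in Ocln and 44 in Marveld2, and at -108 in Tjp3, counting from the start with no position 0. F11r also held it, at -122, so 4 of 7 members had a match in their first listed window, against 20.0% of 27025 promoters. The Cgn window had the only AACNGGTT match on either strand among the first listed windows of the members, at -29, against 2.01% of all promoters, and no CAGGTG. The windows of Tjp1 and Cgnl1 held neither motif. These matches describe the letters and say nothing of a factor's binding. In the gene table Tjp3 overlaps Apba3, and Ocln and Marveld2 lie side by side between Gtf2h2 and Rad17.

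**Figure D1:**
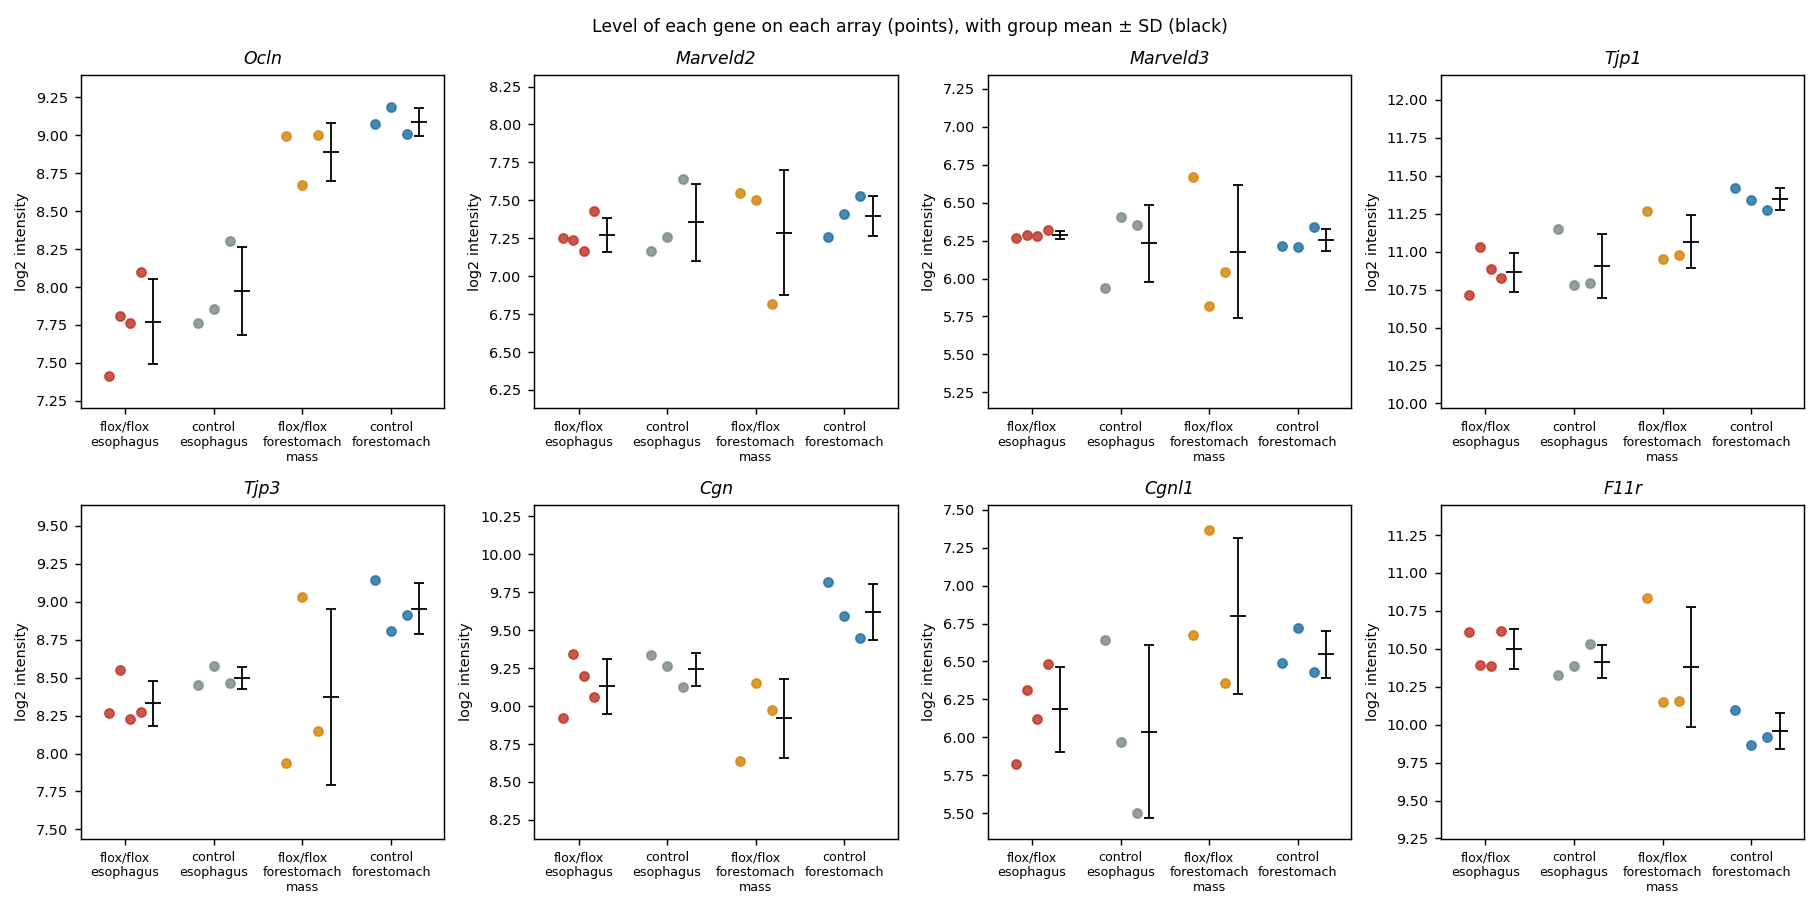
Log2 intensity of each of the 8 genes on each of the 13 arrays (points, coloured by group), with the group mean and SD in black, in panels with their own vertical axis of log2 intensity. Ocln is high in both forestomach groups, Cgn is lower in the masses than in control forestomach, and 1 mass lies apart from the other masses in the Tjp3 panel.

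Ocln showed the largest difference of the 8 genes between the tissues, 1.12 in controls and 1.12 between masses and flox/flox esophagus. In control forestomach its level was 9.07, 9.19 and 9.01 in animals 214, 216 and 217, against 7.76, 7.85 and 8.30 in the esophagus of the same animals. All 3 forestomachs were above all 3 esophagi. The group means were 9.09 ± 0.09 in control forestomach and 7.97 ± 0.29 in control esophagus (SD, n = 3 each), a rise of 1.12 (SE 0.18, 95% interval 0.72 to 1.51), or 2.17-fold, with an adjusted p of 0.00342 in limma. Ocln was called in 25 of 25 alternative settings, with differences of 1.01 to 1.28 and adjusted p of 0.00038 to 0.021.

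In the flox/flox animals the masses had Ocln at 9.0, 8.67 and 9.0 (412, 426 and 510), against 7.41, 7.81, 7.76 and 8.10 in flox/flox esophagus (193, 307, 313 and 335). The groups did not overlap here either. Ocln rose by 1.12 (SE 0.17, 95% interval 0.75 to 1.49, adjusted p = 0.00342), and leaving out mass 426 gave 1.23 (adjusted p = 0.00337). This contrast sets different animals and a mass against epithelium, so tissue and mass cannot be told apart in it. Over its 24 alternatives the difference lay between 0.998 and 1.30, with adjusted p of 0.00198 to 0.0451. Without esophagus arrays 214, 307 and 335 it was 1.30 (adjusted p = 0.0134), against 1.01 between the control tissues. The difference between the 2 contrasts had a 95% interval of -0.54 to 0.54 with all arrays, and was 0.29 (adjusted p = 0.895) without those 3.

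Between the genotypes no difference of Ocln passed the test. Flox/flox esophagus averaged 7.77 ± 0.28 (n = 4) and control esophagus 7.97 ± 0.29 (n = 3), a difference of -0.20 (95% interval -0.57 to 0.17, adjusted p = 0.928). Without the 3 esophagus arrays that held muscle markers this was -0.49 (adjusted p = 0.789). The masses averaged 8.89 ± 0.19 and control forestomach 9.09 ± 0.09 (n = 3 each), again a difference of -0.20 (95% interval -0.60 to 0.20, adjusted p = 0.559). All 3 masses lay below all 3 controls, but the highest mass, at 9.0004, was close to the lowest control, at 9.006. The genes whose pattern was most like that of Ocln over the 13 arrays were Id1 (r = 0.949), Flvcr2 (r = 0.943) and Krt1 (r = 0.934). Krt1, a keratin of cornifying layers, had group means of 13.23 in masses, 13.89 in control forestomach, 5.71 in flox/flox esophagus and 6.47 in control esophagus. These correlations describe 13 arrays that share groups and animals and carry no test.

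No difference of Marveld2 or Marveld3 between groups passed the test. Marveld2, which gathers at the corners where several cells meet, was 7.25, 7.24, 7.16 and 7.43 in flox/flox esophagus and 7.16, 7.26 and 7.64 in control esophagus. Its level was 7.55, 7.50 and 6.81 in masses 412, 426 and 510, against 7.26, 7.41 and 7.53 in control forestomach. The group means lay between 7.27 and 7.40, and all groups next to each other in this order overlapped. Between the control tissues Marveld2 differed by 0.04 (95% interval -0.37 to 0.45, adjusted p = 0.919), so the interval excludes a change of the size seen in Ocln, its neighbour on the chromosome.

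Marveld3 was 6.26, 6.29, 6.28 and 6.32 in flox/flox esophagus and 5.94, 6.41 and 6.35 in control esophagus. The masses had 6.67, 5.82 and 6.04, against 6.21, 6.21 and 6.34 in control forestomach. Mass 412 was the highest and mass 426 the lowest of all 13 arrays. The group means of Marveld3, 6.18 to 6.29, were close to the median of all probe sets on an array, 6.03 to 6.18. Whether the Marveld3 signal is above background was not tested. The mean difference of masses from control forestomach was -0.08 (adjusted p = 0.857), and without mass 426 it was 0.10 (adjusted p = 0.785). Esrp2, a splicing regulator of epithelial cells, was among the genes most like Marveld3 (r = 0.890), after Clk3 (r = 0.902).

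Tjp1 encodes ZO-1, the scaffold to which occludin and the claudins bind. Its level was 10.72, 11.03, 10.89 and 10.83 in flox/flox esophagus and 11.15, 10.78 and 10.79 in control esophagus. In the masses it was 11.27, 10.95 and 10.98, against 11.42, 11.34 and 11.27 in control forestomach. Control forestomach stood highest, above every mass and every control esophagus. Its lowest array, at 11.273, was only just above the highest mass, at 11.268. Control forestomach exceeded control esophagus by 0.44 (SE 0.13, adjusted p = 0.0666), which missed the threshold of 0.05. The masses differed from control forestomach by -0.28 (SE 0.13, 95% interval -0.56 to 0.00397, adjusted p = 0.208).

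Because the 2 control tissues came from the same 3 animals, the comparison was also fitted with the animal as a block. With a random block over all arrays Tjp1 had an adjusted p of 0.0117, and with a fixed block on the control arrays 0.0422. Its adjusted p lay between 0.00327 and 0.222 over 25 alternatives, and it was also called without control esophagus 214 (0.0344) or without mass 412 (0.0383). Without mass 412 the difference between the control tissues was the same, 0.44, with an SE of 0.12. The pattern of Tjp1 was most like that of Minpp1 (r = 0.921), Zfp280b (r = 0.918) and Plppr2 (r = 0.913).

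Tjp3 encodes ZO-3, a scaffold found in epithelia. Its level was 8.27, 8.55, 8.23 and 8.27 in flox/flox esophagus and 8.45, 8.58 and 8.46 in control esophagus. Masses 412, 426 and 510 had 7.94, 9.03 and 8.15, against 9.14, 8.81 and 8.91 in control forestomach. Masses 412 and 510 lay below every other forestomach sample, while mass 426 lay within the control range, which gave an SD of 0.58 in the masses against 0.17 in control forestomach. The mean difference was -0.58 (SE 0.23, 95% interval -1.08 to -0.09, adjusted p = 0.128). Without mass 426 Tjp3 fell by 0.91 in the masses (SE 0.13, adjusted p = 0.00257), against a range of 0.00257 to 0.336 over all 24 alternatives. The difference of the genotype changes in forestomach and esophagus was then -0.75 (adjusted p = 0.0899), and -0.42 with all arrays (adjusted p = 0.737).

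Mass 426 was the array that carried markers of glandular stomach. The 15 markers of simple and glandular epithelium averaged 11.60 in it, against 5.73 to 6.64 on the other 12 arrays, and 13 of the 15 were highest there. Gkn1, a secreted protein of gastric surface cells, was 13.08 in mass 426 and 5.33 to 5.99 elsewhere. Tff1 was 13.39, against 6.47 to 6.94, and Krt8, a keratin of simple epithelia, was 12.93, against 7.10 to 8.03. Krt7 and Epcam were the exceptions, at 9.95 and 9.15, within the range of the other arrays. All 13 of the markers tested had differences above 0 in masses minus control forestomach, and 2 of them were called. The summed intensity of the list ran from 1845 to 61774 in the masses, against 1402 to 1520 in control forestomach. Mass 426 also had smooth muscle markers at a mean level of 10.45, against 8.28 and 6.92 in masses 412 and 510. Its fibroblast markers were at 9.36, against 8.72 and 7.09. The part of any of these cells in the levels of Tjp3 and Cgnl1 in mass 426 was not tested.

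**Figure D2:**
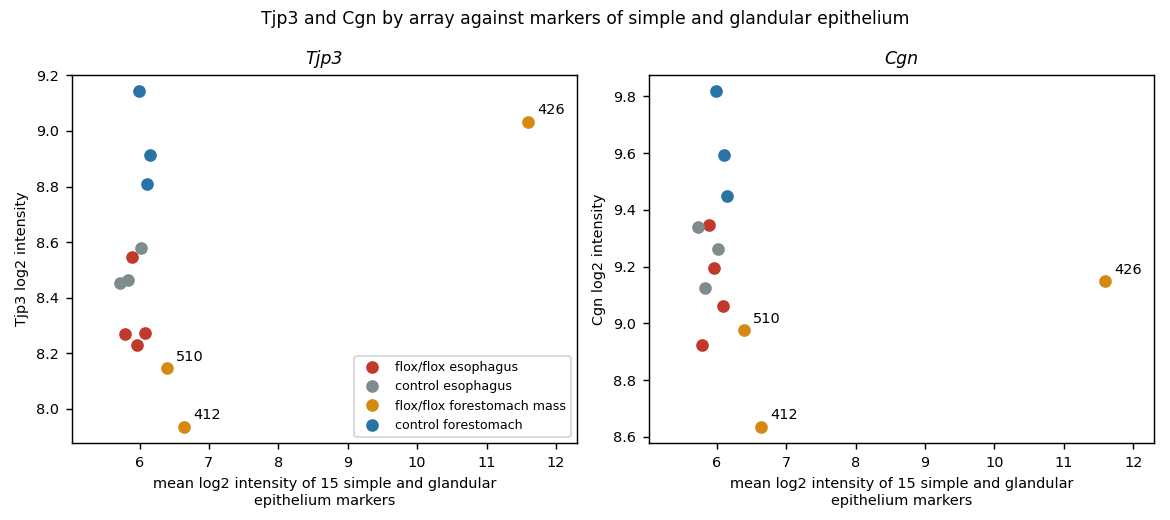
Log2 intensity of Tjp3 (left) and Cgn (right) on each array against the mean log2 intensity of 15 markers of simple and glandular epithelium, 1 point an array, coloured by group, with the masses labelled by animal. Mass 426 stands apart on the marker axis, at 11.60 against 5.73 to 6.64 on the other 12 arrays. Its Tjp3 level of 9.03 is the highest of the 3 masses.

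Between the control tissues Tjp3 differed by 0.46 (SE 0.23, adjusted p = 0.269), with every forestomach above every esophagus. It was called there without mass 426, which lowers the pooled spread (adjusted p = 0.0386). Ehhadh (r = 0.941), an enzyme of peroxisomal fatty acid oxidation, and Dop1b (r = 0.940) had the patterns most like Tjp3.

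Cgn, the gene of cingulin, was the 1 member of 8 that passed the test in the masses, where 10.7% of all genes tested did so, and 8.40% were called as lower. Masses 412, 426 and 510 had 8.64, 9.15 and 8.97, against 9.82, 9.59 and 9.45 in control forestomach, and no mass reached the lowest control. Cgn averaged 8.92 ± 0.26 in the masses and 9.62 ± 0.19 in control forestomach (SD, n = 3 each). It fell by 0.70 (SE 0.15, 95% interval -1.03 to -0.37, adjusted p = 0.0144 in limma), or 1.62-fold lower. Without mass 426 it fell by 0.82 (adjusted p = 0.0091). The call was lost without control forestomach 214, the highest control, where the difference was -0.60 (adjusted p = 0.068). That array also carried smooth muscle markers, at a mean level of 8.06, and their part in its Cgn level was not tested. Cgn was called in 21 of 24 alternatives, with adjusted p of 0.0085 to 0.0797.

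In the esophagus Cgn was 8.92, 9.35, 9.20 and 9.06 in flox/flox animals, against 9.34, 9.26 and 9.13 in controls. These ranges overlapped, and the difference was -0.11 (95% interval -0.42 to 0.20, adjusted p = 0.988). The genotype change in the forestomach minus that in the esophagus was -0.59 (SE 0.21, 95% interval -1.05 to -0.13). Its adjusted p was 0.326, so the fall of Cgn in the masses was not shown to differ from the change in the esophagus. Control forestomach was above control esophagus by 0.38 (adjusted p = 0.177), and this was called with the animal as a random block (0.0451) or a fixed block (0.043), within 0.043 to 0.416 over 25 alternatives. The genes most like Cgn were Pcsk6 (r = 0.953), a proprotein convertase, Pik3c2b (r = 0.943) and Srgap2 (r = 0.937), a GTPase-activating protein. Srgap2 averaged 8.73 in the masses, 9.77 in control forestomach, 9.02 in flox/flox esophagus and 9.11 in control esophagus.

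Cgnl1, the gene of paracingulin, had the widest spread of the 8 genes in control esophagus. It was 5.83, 6.31, 6.12 and 6.48 in flox/flox esophagus, against 6.64, 5.97 and 5.50 in control esophagus. The highest of these were on arrays 214 (6.64), 335 (6.48) and 307 (6.31), which carried fibroblast markers at 10.95, 10.06 and 9.46. The part of those cells in the Cgnl1 levels was not tested. The Cgnl1 means in flox/flox and control esophagus, 6.18 and 6.04, were close to the median of all probe sets, 6.03 to 6.18. Whether they are above background was not tested. The masses had 6.68, 7.36 and 6.36, against 6.49, 6.72 and 6.43 in control forestomach. Mass 426 was the highest of all 13 arrays. The difference of masses from control forestomach was 0.25 (SE 0.30, 95% interval -0.40 to 0.90, adjusted p = 0.668), and -0.03 without mass 426 (adjusted p = 0.967). Masses exceeded flox/flox esophagus by 0.61 (SE 0.28, adjusted p = 0.19), and by 0.33 without mass 426 (adjusted p = 0.46). Control forestomach exceeded control esophagus by 0.51 (SE 0.30, adjusted p = 0.355). Without esophagus arrays 214, 307 and 335 this was 0.81 (adjusted p = 0.178). It was called in 1 of 24 alternatives, that with array weights (adjusted p = 0.0398). Mras, a Ras-related GTPase, was most like Cgnl1 (r = 0.926).

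F11r differed in the opposite direction to Cgn and Tjp3 between the control tissues and in masses against control forestomach. No F11r difference passed the test in the analysis reported. In masses against flox/flox esophagus F11r (-0.12) and Cgn (-0.21) went the same way. The F11r level was 10.61, 10.39, 10.38 and 10.62 in flox/flox esophagus and 10.33, 10.39 and 10.53 in control esophagus. The masses had 10.83, 10.15 and 10.16, against 10.09, 9.86 and 9.92 in control forestomach. Control forestomach was the lowest group, below every array of the other groups. The masses differed from control forestomach by 0.42 (SE 0.17, 95% interval 0.05 to 0.79, adjusted p = 0.14), by 0.54 without mass 426 (adjusted p = 0.0762) and by 0.19 without mass 412 (adjusted p = 0.327).

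Control forestomach was below control esophagus in F11r by a difference of -0.46 (SE 0.17, adjusted p = 0.138). This was called with the animal as a random block (adjusted p = 0.0367) and without mass 412 (0.0191), but not with a fixed block (0.0505), within 0.00362 to 0.353 over 25 alternatives. Without mass 412 the difference between the control tissues was the same, -0.46, with an SE of 0.10. In the masses it was mass 412 that stood apart from the other two. Tnks2, a tankyrase, was the gene most like F11r (r = 0.965), followed by Rnf19a (r = 0.959) and Ranbp2 (r = 0.958).

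**Figure D3:**
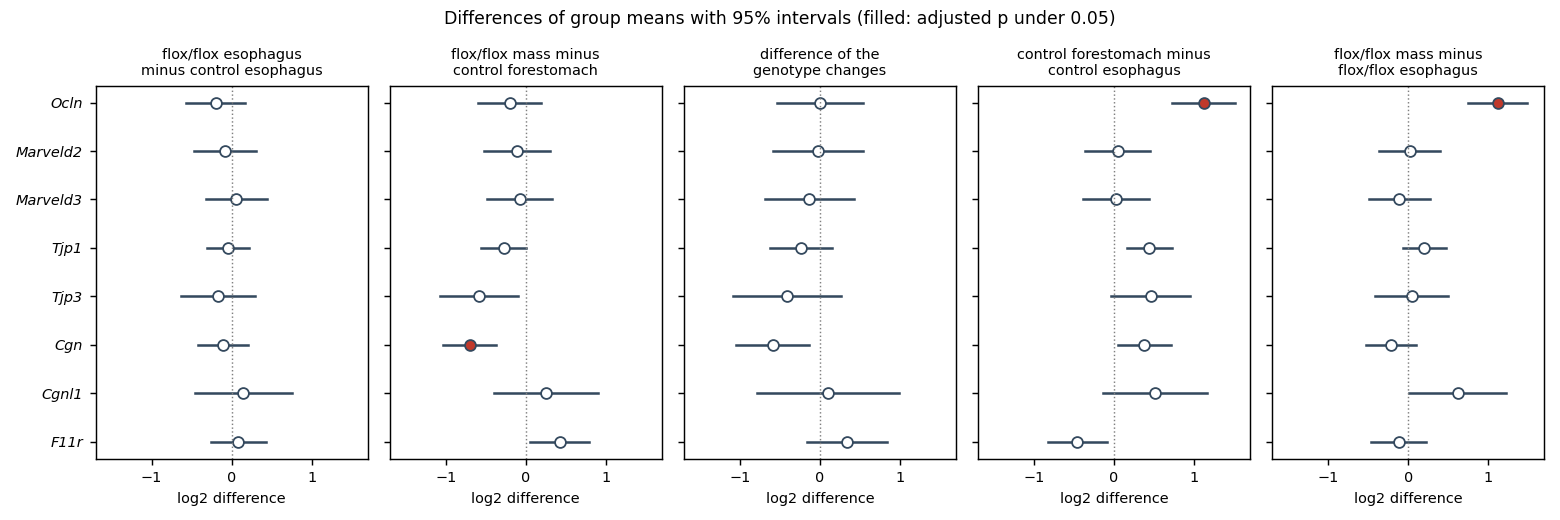
Log2 difference of group means for each of the 8 genes in the comparisons, with its 95% interval from the fit and filled points where the adjusted p is under 0.05. Ocln stands at 1.12 in both tissue contrasts, Cgn at -0.70 in masses minus control forestomach, and all intervals of flox/flox minus control esophagus include 0.

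Read over all 8 genes, the esophagus comparison held no call. Differences of flox/flox minus control esophagus ran from -0.20 for Ocln to 0.15 for Cgnl1, with a median of -0.06 against 0.01 over all genes tested. In limma 0 of 8 members were called, 0 had an unadjusted p under 0.05, and the adjusted p lay between 0.928 and 0.998. Of all genes tested, 0.0126% were called and 6.98% had an unadjusted p under 0.05. The groups overlapped for all 8 members, where 10.3% of all genes had groups apart. All 10 leukocyte markers tested (median 0.83) and all 13 skeletal muscle markers (median 0.66) had differences above 0 in this comparison, none called. The leukocyte list summed to 1189 to 6237 in flox/flox esophagus, against 833 to 1772 in control esophagus. The skeletal muscle list summed to 767 to 18624 in flox/flox esophagus, against 846 to 7495 in control esophagus. Their part in the members' values was not tested.

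In masses against control forestomach 6 of the 8 differences were below 0, where 49.0% of all genes were. The median was -0.16 against 0.01 over all genes. Groups lay apart for 4 members, lower in the masses for Ocln, Tjp1 and Cgn, where 17.5% of all genes were apart and lower, and higher for F11r, where 10.3% were. The gap was very small for Ocln (highest mass 9.0004, lowest control 9.006) and Tjp1 (11.268 and 11.273). The difference of the genotype changes had 0 of 8 members called in limma, and 1 with an unadjusted p under 0.05, Cgn. Of all genes tested 0.139% were called and 10.5% had an unadjusted p under 0.05. All 9 fibroblast markers, all 10 endothelial markers and all 7 smooth muscle markers had differences above 0 from control forestomach, with medians of 1.87, 1.26 and 1.99, none of them called. The fibroblast list summed to intensities of 1824 to 7689 in the masses, against 938 to 2117 in control forestomach. Of 10 leukocyte markers tested, 9 had differences above 0 (median 0.72), and S100a8, a calcium-binding protein abundant in neutrophils, was called (5.43, adjusted p = 0.0196). The 12 leukocyte markers on the array summed to 1895 to 7811 in the masses, against 1164 to 1390 in control forestomach. The part of these cells in the members' differences was not tested.

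Control forestomach against control esophagus gave 7 of 8 differences above 0 and 1 below, where 47.0% of all genes were below. The median was 0.41 against 0.02 over all genes. Ocln was the 1 member called, where 6.67% of all genes were called and 3.51% were called as higher. Counting the animal as a block gave 4 members called with the random block (Ocln, Tjp1, F11r and Cgn), where 16.8% of all genes were called, and 3 with the fixed block (Ocln, Tjp1 and Cgn), where 14.8% were. Groups lay apart for 5 members, against 37.3% of all genes in either direction. Forestomach was the higher group for Ocln, Tjp1, Tjp3 and Cgn and the lower for F11r, where 19.3% of all genes were apart and lower. Fibroblast markers had differences below 0 for 9 of 9 genes in this comparison and skeletal muscle markers for 13 of 13, none called. Without esophagus arrays 214, 307 and 335, Ocln still differed by 1.01 (adjusted p = 0.0184), Tjp1 by 0.56 (0.0606), Cgn by 0.43 (0.286), Tjp3 by 0.43 (0.497) and F11r by -0.50 (0.273). Cgnl1, whose groups overlapped with all arrays, then differed by 0.81 (0.178). That fit left only animals 216 and 217 in control esophagus, and it called 3.15% of all genes. In masses against flox/flox esophagus 1 of 8 members was called, Ocln, where 1.95% of all genes were called as higher. Groups lay apart for that member alone, where 6.78% of all genes were apart and higher.

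The 8 genes did not move as a block over the arrays. Tjp3 and Cgn had the strongest positive correlation of all member pairs, at 0.82 over 13 arrays and 0.72 after the group means were taken out. F11r was negatively correlated with Cgn, at -0.76 over the arrays and -0.66 within groups, and with Tjp3, at -0.75 and -0.50. Ocln and Tjp1 were correlated at 0.73 over the arrays but at 0.05 within groups. Ocln and Marveld2, which are neighbours in the genome, had 0.20 over the arrays and 0.25 within groups. The points share groups and, for the controls, animals, so these values are descriptions. The SD was largest in the masses for 5 of the 8 genes and in control esophagus for the other 3.

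Other tight junction genes gave a background to these values, from lists chosen for their place in the junction. In the masses 2 of 18 claudins tested were called, out of 23 on the array, where 10.7% of all genes were. Cldn17, a channel-forming claudin, rose by 4.16 (SE 0.62, adjusted p = 0.00251), and by 5.09 without mass 426. Cldn23 fell by 1.74 (SE 0.28, adjusted p = 0.00371), with means of 6.38 in masses and 8.12 in control forestomach. Of the 9 other junctional immunoglobulin-fold proteins and angulins, 0 were called and all 9 had differences above 0, with a median of 0.40, of which Jam2 had the largest (1.48, SE 0.81, adjusted p = 0.294).

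Among 10 other scaffolds 2 were called as lower in the masses, where 8.40% of all genes tested were. Amotl2, of the angiomotin family, fell by 1.20 (adjusted p = 0.00432) and Magi3 fell by 0.98 (adjusted p = 0.0288). The Magi3 call was lost without any 1 of the control forestomachs or without mass 412. Among 10 genes of the apical polarity complexes 2 were called as lower, against the same 8.40% of all genes. Pard6b fell by 0.85 (adjusted p = 0.00411) and Pard3 fell by 1.02 (adjusted p = 0.00814). The Par3 and Par6 proteins they encode help to place the junctions.

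Between the control tissues 1 of 18 claudins tested was called as higher and 2 as lower, and 3 of 10 polarity genes as higher. Of 10 other scaffolds 1 was called as lower. Among all genes tested 6.67% were called in either direction. In forestomach Cldn17 fell by 5.21 (adjusted p = 0.000458) and Cldn10 fell by 1.59 (adjusted p = 0.00208). Cldn1, the barrier claudin of skin, rose by 1.76 (adjusted p = 0.0246), a call lost without any 1 of the 6 control arrays. Of the polarity genes Pard3 rose by 1.06 (adjusted p = 0.00713), Pard6b by 0.66 (adjusted p = 0.0149) and Crb3 by 0.62 (adjusted p = 0.0216). Without esophagus arrays 214, 307 and 335 the 3 polarity genes differed by 1.01, 0.71 and 0.55 in the same order, and their adjusted p of 0.0624, 0.067 and 0.148 missed the threshold. That fit left only animals 216 and 217 in control esophagus, and it called 3.15% of all genes, against 6.67% with all arrays. Tjap1 fell by 0.66 (adjusted p = 0.0471) and was called in 14 of 25 alternatives. No immunoglobulin-fold gene was called without a block (Igsf5, named after its values were seen, was called as higher with the fixed block), and the largest difference among them was that of Jam2 (-0.77, adjusted p = 0.628). With the animal as a random block 5 of 18 claudins were called, where 16.8% of all genes were, and with a fixed block 6 of 18, where 14.8% were.

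In masses against flox/flox esophagus Cldn10 fell by 1.63 (adjusted p = 0.00229), Prkci, an atypical protein kinase C, fell by 0.53 (adjusted p = 0.00489) and Pard6g fell by 0.71 (adjusted p = 0.0166). Cldn1 rose by 1.66 (adjusted p = 0.0263), a call that held in 18 of 24 alternatives. Without esophagus arrays 214, 307 and 335 Cldn10 was still called (adjusted p = 0.00823). Prkci (0.0619), Pard6g (0.0722) and Cldn1 (0.144) then missed the threshold. Cldn7 (0.75), Lsr (0.58), Magi3 (-0.93) and Tjap1 (-0.61) passed the test with all arrays but in 12 of 23, 11 of 24, 14 of 24 and 8 of 24 alternatives. In flox/flox against control esophagus, and in the difference of the genotype changes with all arrays and no block, no gene of these lists was called. The largest difference of a listed gene in the esophagus was that of Cldn23 (-0.90, SE 0.26, adjusted p = 0.541), and in the difference of the changes that of Cldn17 (4.27, SE 0.85, adjusted p = 0.0674). Cldn17 was called there in 3 of 23 alternatives: a filter at 7 (adjusted p = 0.0425), the random block (0.0255) and without mass 426, where the difference was 5.20 (adjusted p = 0.000788).

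**Figure D4:**
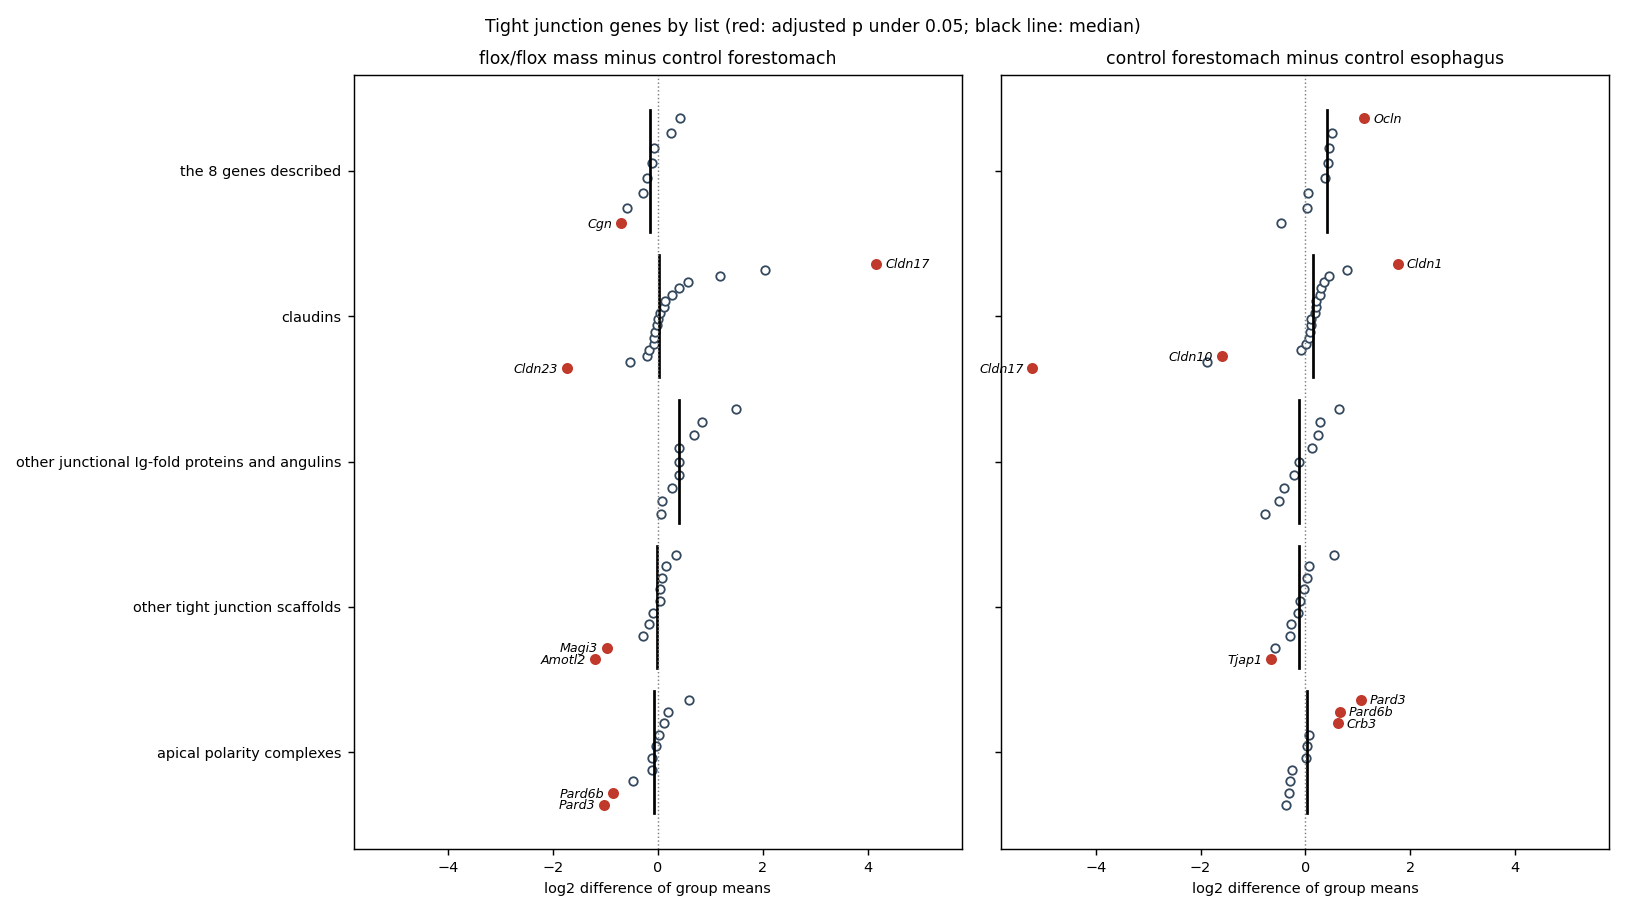
Log2 difference of group means for the 8 genes and for 4 lists of other tight junction genes, in masses minus control forestomach and in control forestomach minus control esophagus, with genes of adjusted p under 0.05 filled and named and a bar at each list's median. Cldn17 is the farthest gene in both panels, at 4.16 and -5.21.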

How the data were processed

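Per the labels' protocols, epithelium was freed with dispase, RNA was taken up in Trizol, and biotinylated cRNA was hybridised. Per the submitters' processing notes the authors used GCRMA, in a version not given in the sources used here, and the deposited table holds linear intensity values. The platform annotation gave 1 gene to 21633 of 34729 probe sets, several genes to 1306 and no gene to 11790. Values under 1 were set to 1 and put on the log2 scale. The highest-mean probe set was taken for each gene, and genes above 5 on at least 3 arrays were then kept. Arrays had median intensities of 65.3 to 72.4. Precision is limited by how few arrays each group holds. The lmFit and eBayes functions of limma 3.58.1 (R 4.3.3) fitted a mean for each group in 1 fit of all 13 arrays with 9 residual degrees of freedom, and p-values were adjusted by Benjamini-Hochberg over the 15875 genes tested. The fit was tested on simulated data with independent noise on each array, which does not cover tissues that share an animal. Between the 2 tissues of 1 control animal, deviations from the group mean correlated at 0.401, 0.398 and 0.315 (animals 214, 216 and 217), so the animal was also used as a block (consensus correlation 0.396). Replicates are different animals. The members and all gene lists were chosen with earlier results of these data known. All members are named; other genes are named by the smallest adjusted p in a list (up to 3), the largest difference where none was called, or the highest r with a member. Alternatives changed the filter, probe set rule, normalization, offset (16), variance prior, array weights, block and arrays used. The sensitivity of Ctnnd1 and the listed genes was added after the data were seen. A further gene list is not reported here.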

Additional observations from a re-analysis of the deposited data

Results flagged for a closer look

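In flox/flox esophagus the Tjp3 level of animal 307, at 8.55, stood apart from the other 3 animals, which had 8.27, 8.23 and 8.27. Its gap to the nearest of them was above the critical share of the group's range. Of the groups of 4 arrays, 8 were examined, 1 for each gene, and chance sets a sample apart in about 1 of 20 such groups. Animal 307 was also an array with skeletal muscle markers, at a mean level of 8.33, and the part of this in its Tjp3 level was not tested.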

How the results depend on the processing

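Of 950 results of the 8 genes under alternatives, 21 changed their call and 49 changed sign without a call, none of them reversing a called value. Between the control tissues the count of members called, 1 in the analysis reported, was 2 with a filter at 7, 2 with quantile normalization, 3 with only the arrays of the groups compared, 5 with array weights, 4 with the animal as a random replicate block and 3 with it as a fixed block. The share of all genes called also rose, from 6.67% to 7.12% (quantile), 14.3% (arrays compared) and 23.9% (array weights). It was 16.8% and 14.8% with the random and fixed blocks. The filter at 7 called 1194 of 9197 genes tested, against 1059 of 15875 in the analysis reported. Leaving out 1 array at a time gave 1 to 3 members. There were 2 without control esophagus 214 (4.14% of all genes), 3 without mass 412 (9.81%) and 2 without mass 426 (8.70%). In masses against control forestomach, where the count was 1, it was 0 with only the arrays compared and 0 with array weights (Cgn adjusted p 0.0797 and 0.0755). Of all genes, 2.85% and 6.94% were called under those settings, against 10.7% in the analysis reported. Leaving out 1 array gave 0 members (control forestomach 214, 4.71% of all genes) to 2 members (mass 426, 11.6%). The counts stayed at 0 in flox/flox against control esophagus and in the difference of the changes, and at 1 in masses against flox/flox esophagus, when any 1 array was left out. The replicate block changed no other call of the 8 genes. Without mass 412 or mass 426 the members' differences between the control tissues were unchanged, and only their SE and adjusted p moved. The cause of the changes was not otherwise tested. Over all genes, calls in masses against control forestomach numbered 1700, with 452 from only the arrays compared and 1102 with array weights. Between control tissues they numbered 1059, with 2273, 3802, 2670 and 2348 under the arrays compared, array weights and the random and fixed blocks. In masses against flox/flox esophagus 1112 became 100 and 295 under the arrays compared and array weights. In the difference 22 became 101 (filter at 7), 49 (quantile), 79 (offset), 60 (array weights), 56 (variance prior) and 145 (random block), and in the esophagus 2 became 0 (arrays compared and random block) or 3 (array weights). Leaving out 1 array gave 747 (control forestomach 214) to 2238 (mass 510) calls in masses against control forestomach, with 825 and 804 without control forestomach 216 and 217. It gave 538 (control forestomach 216) to 1564 (mass 510) between control tissues and 638 (flox/flox esophagus 193) to 2364 (mass 412) in masses against flox/flox esophagus. In the difference it gave 10 (control forestomach 216) to 373 (mass 510), with 139 without mass 426, and in the esophagus 0 to 7 (flox/flox esophagus 307). Marveld3 and Cgnl1 were not tested with a filter at 7, and the difference uses all groups, so it has no fit on fewer.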
